A study of Mus musculus with 6 samples.

Results

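Matrix metalloproteinases and their inhibitors were described in 12 mouse prostate tumours through 10 genes picked by symbol. The 8 enzymes were Mmp2, Mmp3, Mmp8, Mmp9, Mmp12, Mmp13, Mmp14 and Mmp19, and the 2 tissue inhibitors were Timp1 and Timp2. They were 10 of the 18848 genes in the deposited expression table, and all 10 were found there. Every tumour came from PPS-ICBR, a mouse prostate cancer line described as resistant to immune checkpoint blockade, and grew in C57Bl6 mice. There were 4 treatments with 3 tumours each. BD+ICB mice ate a butanediol diet and received antibodies to PD-1 and CTLA-4. ICB mice received the antibodies alone, listed as 0.2 mg biweekly. BD mice ate the butanediol diet alone, a mash of 80 mL 1,3-butanediol, 120 mL water, 198 g chow and 2 g saccharine. SD mice ate standard chow. The labels name tumours, not mice, and give no age. The series asks whether a diet that raises ketone bodies alters resistance to blockade.

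The enzymes are zinc-dependent proteases that cut collagens, elastin and other proteins of the extracellular matrix, and that also trim chemokines and release growth factors. Most are secreted as inactive proenzymes, Mmp14 sits in the cell membrane and activates proMmp2, and Timp1 and Timp2 bind active enzymes and block them. In tumours the family is shared out between stromal cells, cancer cells, macrophages and neutrophils, so that each cell type brings its own enzymes to the matrix.

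Mmp13, Mmp12, Mmp3 and Mmp8 are neighbours within 296 kb of chromosome 9, on the plus strand from base 7272514 to base 7568486 (GRCm38.p6). Mmp13 and Mmp12 were highest in Mmp+ M2 macrophages, Mmp3 in mesenchymal cells and Mmp8 in Cxcr2+ neutrophils, as described below, so the 100 bases around their start sites are printed for comparison. The windows are chr9:7272434-7272533 for Mmp13, chr9:7344317-7344416 and chr9:7347294-7347393 for the pair of annotated Mmp12 starts, chr9:7445742-7445841 for Mmp3 and chr9:7558349-7558448 for Mmp8, all from RefSeq. Each runs 5′ to 3′ on the plus strand from 80 bases before the start. Capitals mark the AP-1 motif (TGACTCA or its reverse complement TGAGTCA) and the TATA motif (TATAAA or its reverse complement TTTATA), searched on both strands from 250 bases before to 50 after each start. All matches fell inside the printed windows, none overlapped, and no other motif was searched.
Mmp13: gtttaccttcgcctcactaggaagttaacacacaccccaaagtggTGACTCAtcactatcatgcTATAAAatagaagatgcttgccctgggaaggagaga
Mmp12 first start: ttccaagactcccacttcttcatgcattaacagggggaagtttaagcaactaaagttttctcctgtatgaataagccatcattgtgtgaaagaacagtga
Mmp12 second start: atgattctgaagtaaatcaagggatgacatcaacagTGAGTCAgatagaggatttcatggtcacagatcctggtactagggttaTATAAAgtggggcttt
Mmp3: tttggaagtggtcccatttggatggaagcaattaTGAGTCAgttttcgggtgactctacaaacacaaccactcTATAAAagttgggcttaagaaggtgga
Mmp8: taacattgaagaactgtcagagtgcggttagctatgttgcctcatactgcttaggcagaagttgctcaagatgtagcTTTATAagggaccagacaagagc
The AP-1 letters began at -35 from the annotated start in Mmp13, at -44 in the second Mmp12 start and at -46 in Mmp3. Mmp8 and the first Mmp12 start held none. Over the same span of bases, AP-1 letters occurred in 5.2% and TATA letters in 13.6% of 32851 RefSeq promoters. Of the 10 genes, 7 had a promoter entry, and the promoters of Mmp14, Timp1 and Timp2 held neither motif. A match is a run of letters and says nothing of binding.

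The libraries were droplet-based single-cell RNA counts of unique molecular identifiers (UMIs), with a hashtag antibody for each tumour. The BD+ICB and ICB tumours shared one library and the BD and SD tumours the other, so diet was compared within a library, whereas blockade and library cannot be told apart. Diet groups also differed in hashtags and in listed tumour size (no unit given), which was 23 to 90 in BD+ICB, 289 to 1116 in ICB, 172 to 203 in BD tumours and 870 to 2348 in SD tumours. The deposited cells numbered 1730 in BD+ICB, 2314 in ICB, 490 in BD and 1215 in SD tumours, and UMIs per tumour ranged from 510984 in BD tumour 2 (70 cells) to 13007506 in ICB tumour 1. The leukocyte layer of a Percoll gradient was taken, per the labels' protocols. Even so, mesenchymal cells held 0.350 to 1.23% of cells in BD+ICB, 1.64 to 4.22% in ICB, 0.855 to 2.86% in BD tumours and 10.9 to 14.0% in SD tumours. Of the barcodes, 1931 occurred in both libraries, of which 2 were among deposited cells.

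The deposited class names were kept and set against marker genes, in CPM, the UMIs of a gene scaled to 1e+06 UMIs of the class. Mesenchymal cells had 1833 CPM of Col1a1 but also 937 CPM of the epithelial keratin Krt8, with Epcam at 2.42 CPM and Krt5 at 0. The class named proliferating cancer cells was alike, with 519 CPM of Col1a1, 798 CPM of Krt8, 0.568 CPM of Epcam and no Krt5. Nos2+ dendritic cells had 955 CPM of the macrophage gene C1qa and only 0.155 CPM of the dendritic gene Flt3, with Zbtb46 at 0, so their name goes against these markers. Cxcr2+ neutrophils carried 924 CPM of Csf3r, against 23.3 CPM in Mmp+ M2 macrophages. The classes were made from these same cells, so the levels by class that follow are a description with no test.

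Mmp2, a gelatinase, and Mmp3, a stromelysin, were highest in the class named mesenchymal cells. Over the tumours with at least 10 cells of a class, Mmp2 averaged 407 ± 89.9 CPM in mesenchymal cells (SD, n = 6; 235 to 486 CPM) and 144 ± 30.6 CPM in proliferating cancer cells (SD, n = 7). The spreads of these leading classes did not overlap, and the other 14 classes with 2 or more tumours averaged 8.82 to 43.9 CPM, led by Cxcr2+ neutrophils. Together mesenchymal and proliferating cancer cells held 51.7% and 35.5% of all 6212 Mmp2 UMIs, against 11.7% and 22.5% of the UMIs of all genes. Mmp3 averaged 104 ± 87.7 CPM in mesenchymal cells (SD, n = 6; 24.0 to 261 CPM), and the other 15 classes averaged 1.61 to 22.0 CPM. Its 1420 UMIs were unevenly held, with 81.0% in the 58 cells richest in it and 190 in a single cell.

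The inhibitors Timp1 and Timp2 shared these cells, in a different order. Timp2 averaged 880 ± 138 CPM in mesenchymal cells (SD, n = 6) and 531 ± 37.4 CPM in proliferating cancer cells (SD, n = 7), with no overlap of the spreads, and Trem2+ M2 macrophages came next at 318 ± 111 CPM (SD, n = 12). Timp1 averaged 472 ± 71.3 CPM in proliferating cancer cells (SD, n = 7) and 381 ± 56.7 CPM in mesenchymal cells (SD, n = 6), whose spreads overlapped. Vcan+ monocytes followed at 141 ± 97.1 CPM (SD, n = 7). Proliferating cancer cells held 55.0% of all Timp1 UMIs and 39.9% of all Timp2 UMIs. Timp2 was also read outside these classes, with its lowest mean, 29.7 CPM, in Vcan+ monocytes.

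Mmp9, the neutrophil gelatinase, belonged to neutrophils. It averaged 722 ± 301 CPM in Cxcr2+ neutrophils (SD, n = 11; 365 to 1421 CPM), 352 ± 86.0 CPM in Ifit+ neutrophils (SD, n = 4) and 198 ± 98.8 CPM in Hilpda+ neutrophils (SD, n = 8). No other class exceeded a mean of 28.8 CPM, and neutrophils held 85.1% of its UMIs with 6.40% of the UMIs of all genes. Mmp8, the neutrophil collagenase, was less tied to them. It averaged 247 ± 202 CPM in Cxcr2+ neutrophils (SD, n = 11), 141 ± 82.8 CPM in Hilpda+ neutrophils (SD, n = 8), 102.5 ± 95.5 CPM in Mmp+ M2 macrophages (SD, n = 12) and 102 ± 76.6 CPM in Vcan+ monocytes (SD, n = 7). Neighbours in that order overlapped. Neutrophils and macrophages each held 37.8% of Mmp8 UMIs, and monocytes held 16.4%. Mmp+ M2 macrophages, in which Mmp8 was read, had 205 CPM of the neutrophil gene S100a8, against 33610 CPM in Cxcr2+ neutrophils, and the part of free neutrophil RNA in that reading was not tested.

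Mmp12, the macrophage elastase, and Mmp13, a collagenase, marked the class that bears the family's name. Mmp12 averaged 1864 ± 778 CPM in Mmp+ M2 macrophages (SD, n = 12; 854 to 3323 CPM), above Nos2+ dendritic cells at 407 ± 148 CPM (SD, n = 6) with no overlap of the spreads. M1 macrophages at 388 ± 320 CPM (SD, n = 10) and other dendritic cells at 226 ± 297 CPM (SD, n = 7) came next in the order, each overlapping with its neighbours. Macrophages held 81.5% and dendritic classes 10.4% of the 18812 Mmp12 UMIs. Mmp13 averaged 339 ± 295 CPM in Mmp+ M2 macrophages (SD, n = 12), ranging from 42.3 to 1146 CPM, and macrophages held 76.7% of its UMIs. The other 15 classes averaged 0.884 to 103 CPM, led by other macrophages.

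Mmp14, the membrane-type enzyme, and Mmp19 were broader. Mmp14 had at least 1 UMI in 50.5% of all cells, and 9 of the 16 classes with 2 or more tumours averaged 178 to 488 CPM. These were mesenchymal cells at 488 ± 88.5 CPM (SD, n = 6), Nos2+ dendritic cells at 384 ± 69.2 CPM (SD, n = 6), all 4 macrophage classes between 269 and 335 CPM, proliferating cancer cells, proliferating immune cells and Vcan+ monocytes. Each overlapped with its neighbour in the order. The remaining 7 classes averaged 13.9 to 78.5 CPM, lowest in CD8 T cells. Mmp19 was myeloid, with 217 ± 130 CPM in Vcan+ monocytes (SD, n = 7), 166 ± 96.9 CPM in Nos2+ dendritic cells (SD, n = 6) and 145 ± 53.4 CPM in M1 macrophages (SD, n = 10), and macrophages held 54.0% of its UMIs.

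**Figure D1:**
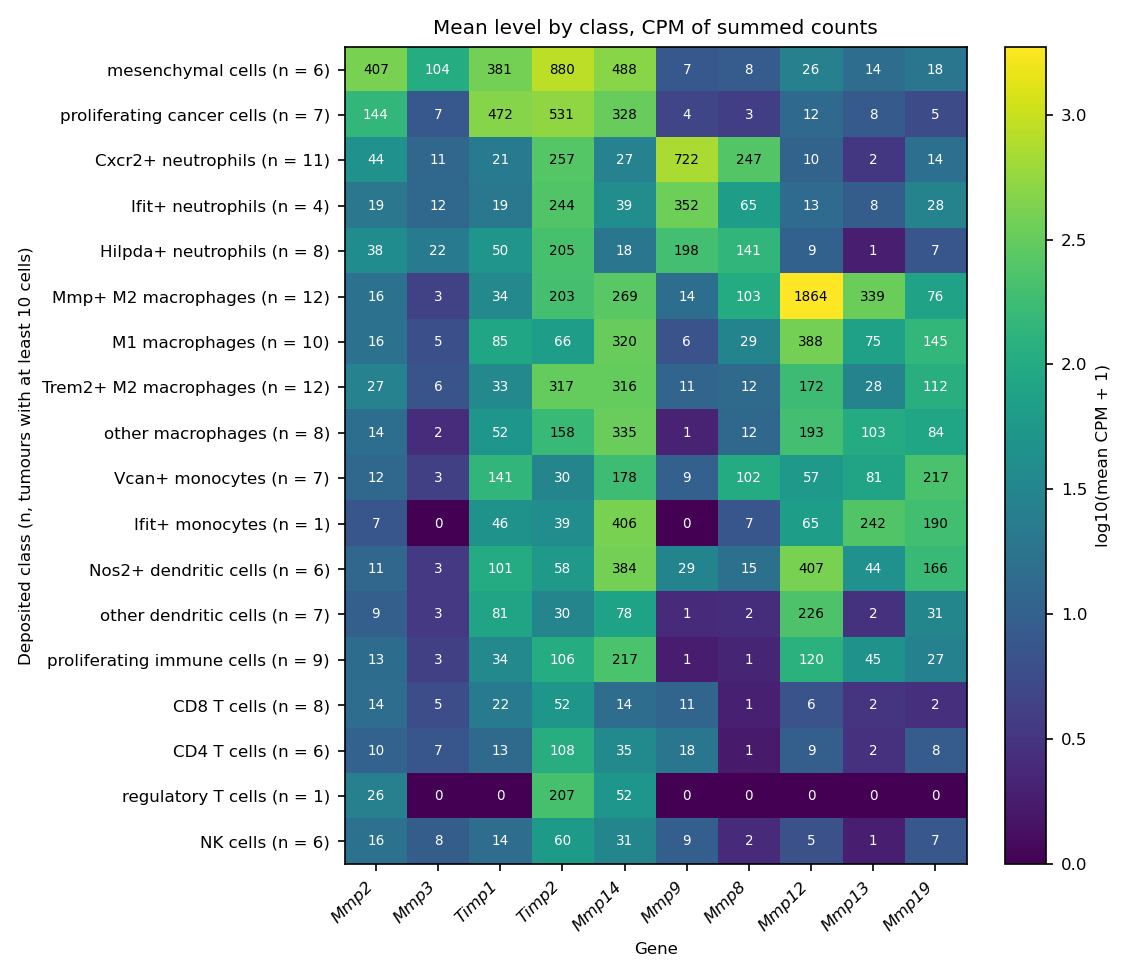
Mean level of the 10 genes (columns) in each deposited class with at least 10 cells in a tumour (rows), in CPM, averaged over tumours; the printed figure in each box is that mean and the shade follows its logarithm. Mmp2, Mmp3 and Timp2 are highest in mesenchymal cells, Mmp8 and Mmp9 in Cxcr2+ neutrophils, and Mmp12 and Mmp13 in Mmp+ M2 macrophages. The tumours averaged, and their treatments, differ between classes.

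Shares of cells with a UMI gave the same leading classes after each cell was thinned to 1000 UMIs, with CD8 T cells as the class that should lack these genes. Mmp12 was seen in 42.7% of Mmp+ M2 macrophages (exact 95% interval 37.8 to 47.8%; 68.7% before thinning) and in 1.43% of CD8 T cells, which had medians of 10214 and 6263 UMIs per cell. Mmp9 was seen in 42.0% of Cxcr2+ neutrophils (38.5 to 45.6%; median 2393 UMIs, and 39 cells too shallow to thin) and 0.717% of CD8 T cells. Timp2 reached 51.9% of mesenchymal cells (45.4 to 58.3%) and 3.94% of CD8 T cells. Mmp3 reached only 5.39% of mesenchymal cells (2.90 to 9.05%) against 1.08% of CD8 T cells and 2.27% of NK cells. Intervals cover counting error only. Over the thinned cells, 71.2% of Mmp+ M2 macrophages had a UMI of some metalloproteinase of the family and 28.8% had UMIs of 2 or more. In CD8 T cells these shares were 6.27% and 0.179%. Other classes came nearer, with 56.6% and 16.2% of Nos2+ dendritic cells and 56.0% and 17.4% of mesenchymal cells. Cxcr2+ neutrophils had 55.7% and 12.9%, and M1 macrophages 54.6% and 17.8%.

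**Figure D2:**
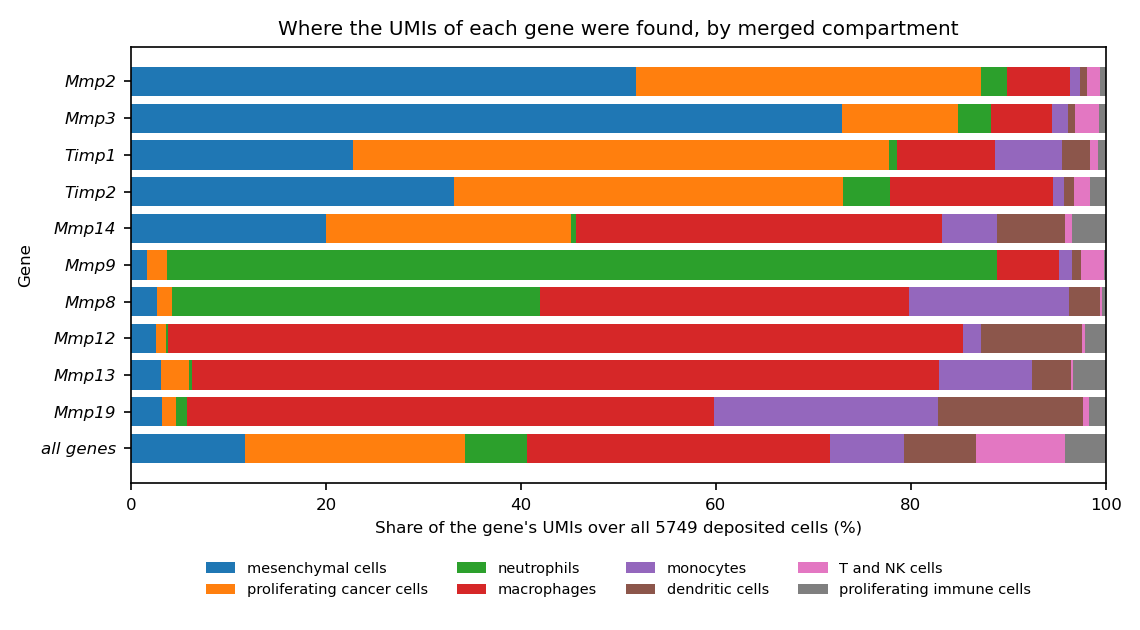
Share of each gene's UMIs (horizontal bars, percent of all UMIs of the gene over the 12 tumours) held by each merged compartment, with all genes together as the last bar. Neutrophils hold 85.1% of Mmp9, macrophages 81.5% of Mmp12, and mesenchymal cells 73.0% of Mmp3.

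Diet was compared first, over all deposited cells of a tumour. Mmp2 and both inhibitors were lower on butanediol and Mmp12 and Mmp19 higher. Mmp2 had 37.4, 59.6 and 33.2 CPM in BD+ICB tumours 1 to 3, against 105, 151 and 85.0 CPM in ICB tumours, and 67.5, 31.3 and 21.4 CPM in BD tumours, against 156, 171 and 100 CPM in SD tumours. Every butanediol tumour lay below every standard-chow tumour of its library. Over both libraries Mmp2 fell by 1.41 on the log2 scale (SE 0.26, adjusted p = 0.00343, edgeR quasi-likelihood test).

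Mmp12 moved the other way. It had 449, 390 and 490 CPM in BD+ICB, against 161, 340 and 151 CPM in ICB tumours, and 319, 579 and 247 CPM in BD, against 41.9, 139 and 125 CPM in SD tumours. The diets did not overlap in either library, and the log2 fold change over both was 1.59 (SE 0.36, adjusted p = 0.00937). Mmp19 had 98.9, 107 and 108 CPM in BD+ICB, against 83.7, 40.5 and 52.5 CPM in ICB tumours, and 69.5, 39.1 and 91.4 CPM in BD, against 24.0, 45.3 and 29.3 CPM in SD tumours. BD tumour 2 lay below SD tumour 2, and the log2 fold change over both libraries was 1.10 (SE 0.22, adjusted p = 0.00398).

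Of the inhibitors, Timp2 had 196, 171 and 187 CPM in BD+ICB, against 393, 402 and 292 CPM in ICB tumours, and 194, 417 and 239 CPM in BD, against 407, 410 and 426 CPM in SD tumours. BD tumour 2 reached the SD range, and Timp2 fell by 0.64 (SE 0.16, adjusted p = 0.0120) over both libraries. Timp1 had 194, 138 and 181 CPM in BD+ICB, against 231, 218 and 210 CPM in ICB tumours, and 154, 37.2 and 75.2 CPM in BD, against 188, 242 and 211 CPM in SD tumours. The diets did not overlap, and Timp1 fell by 0.63 (SE 0.21, adjusted p = 0.0445), a call kept in 2 of the 12 fits that left out a tumour. The adjusted p was 0.0561 to 0.106 in the other 10, and only the fits without BD tumour 1 or BD tumour 2 kept it.

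The other 5 genes did not pass. Their log2 fold changes over both libraries were -1.59 for Mmp3 (adjusted p = 0.109), -0.48 for Mmp8 (adjusted p = 0.430), -1.32 for Mmp9 (adjusted p = 0.149), 0.70 for Mmp13 (adjusted p = 0.147) and -0.13 for Mmp14 (adjusted p = 0.523). Mmp9 ranged from 5.31 to 29.6 CPM in BD+ICB, 15.1 to 110 CPM in ICB, 11.0 to 56.8 CPM in BD tumours and 38.1 to 52.7 CPM in SD tumours. Mmp14 stood at 248 to 290 CPM in BD+ICB, 272 to 317 CPM in ICB, 155 to 317 CPM in BD tumours and 249 to 313 CPM in SD tumours. Thus 2 genes rose and 3 fell of 10, while 30.6% of all 11988 genes tested were called in this comparison. The median log2 fold change was -0.56 over the 10 genes and 0.01 over all genes.

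Within the libraries, 4 of the 10 genes passed in BD against SD tumours, where 21.3% of all genes did. They were Mmp2 (-1.56, SE 0.40, adjusted p = 0.0207), Mmp12 (2.04, SE 0.52, adjusted p = 0.0225), Mmp19 (1.26, SE 0.34, adjusted p = 0.0220) and Timp1 (-1.02, SE 0.31, adjusted p = 0.0406). Leaving out BD tumour 2 or 3 or SD tumour 1 or 2 lost Mmp2 (adjusted p = 0.0565 to 0.0662), and leaving out BD tumour 2 lost Mmp12 (adjusted p = 0.0615). Mmp19 was lost without BD tumour 1 or 3 or SD tumour 1 or 3 (adjusted p = 0.0563 to 0.1), and Timp1 in 9 of 12 such fits (adjusted p = 0.0528 to 0.139), all but those without BD tumour 1 (-1.65), BD tumour 2 or BD+ICB tumour 2. In BD+ICB against ICB tumours Timp2 alone passed (-0.85, SE 0.23, adjusted p = 0.0451), where 6.48% of all genes did, and 9 of 12 fits that left out a tumour lost it, at adjusted p = 0.0534 to 0.188, all but those without BD tumour 1, BD tumour 2 or ICB tumour 3. Mmp2 stood at -1.26 there (adjusted p = 0.0586), Mmp19 at 0.94 (adjusted p = 0.0733) and Mmp12 at 1.15 (adjusted p = 0.187). The difference between both diet effects was called for none of the 10 genes and 0% of all genes, and none of the 10 had an unadjusted p under 0.05. DESeq2 called 0 of the 10, beside 120 of all 11988 genes.

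**Figure D3:**
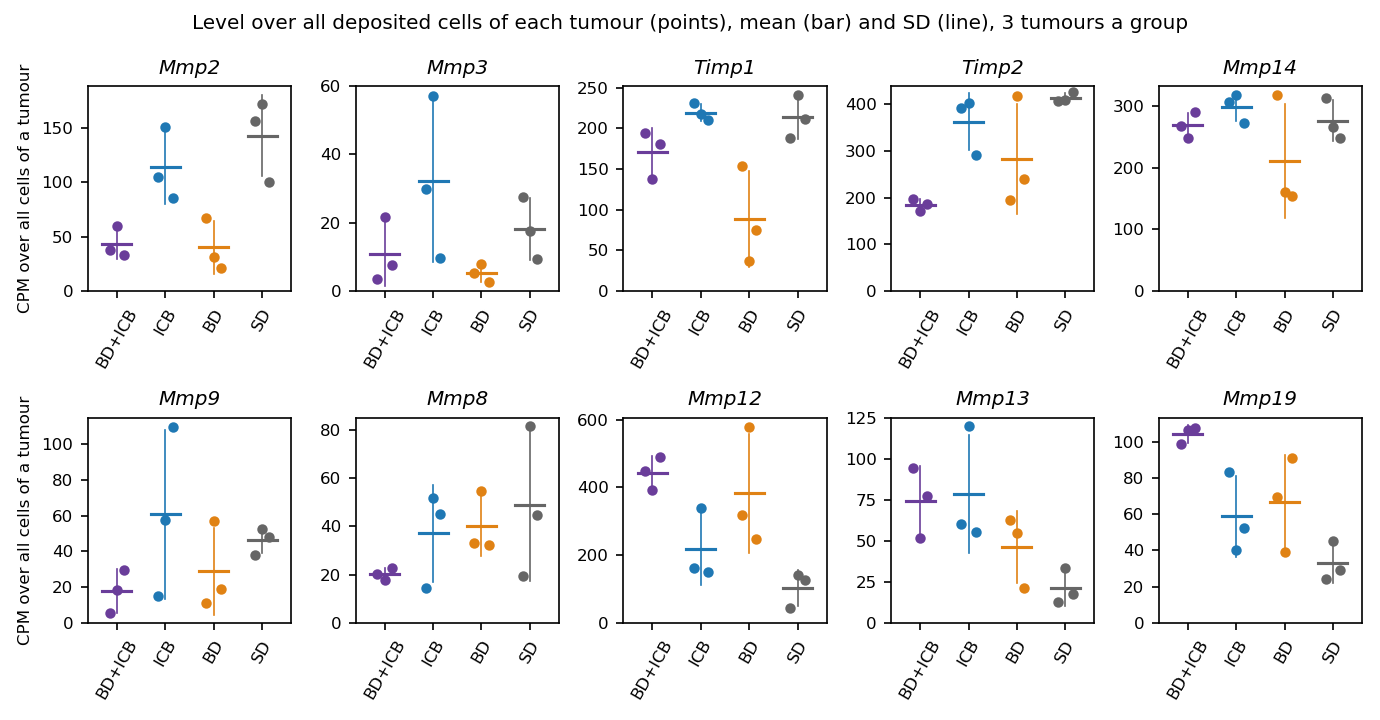
Level of each gene over all deposited cells of a tumour (vertical axis, CPM, from 0), one panel per gene, with a point per tumour, a bar at the mean and a line for the SD of the 3 tumours, for BD+ICB, ICB, BD and SD from left to right. Mmp2 lies lower and Mmp12 higher in BD+ICB than in ICB tumours and in BD than in SD tumours, without overlap.

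The class makeup of the deposited cells also differed between the diets, though not in every class. These cells came from a leukocyte layer and passed a hashtag limit, so the shares below are not those of the whole tumours. The part of makeup in these levels was not tested. Mesenchymal cells gave 0.347, 5.26 and 5.42% of the UMIs in BD+ICB and 14.1, 20.3 and 6.61% in ICB tumours, and 6.93, 2.73 and 3.76% in BD and 23.7, 28.7 and 25.2% in SD tumours. Mmp+ M2 macrophages, the class highest in Mmp12, made up 3.38 to 9.45% of cells in BD+ICB and 5.53 to 8.26% in ICB tumours, but 14.5 to 16.2% in BD tumours and 3.37 to 5.40% in SD tumours. M1 macrophages made up 16.0 to 18.6% in BD+ICB and 5.89 to 7.23% in ICB tumours.

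A level was then computed with each class held at its mean over all tumours and weighted by its share of a tumour's UMIs, a description chosen after the data were seen. For BD over SD the log2 ratio of mean levels was -1.83 for Mmp2 and -1.87 from the makeup alone. It was 1.90 for Mmp12 and 1.74 from the makeup, and 1.02 for Mmp19 and 0.82 from the makeup. The observed ratio was smaller in size for Timp1 (-1.27, and -1.60 from the makeup), Timp2 (-0.55, and -0.96) and Mmp13 (1.13, and 1.44). It was of opposite sign for Mmp8 (-0.28, and 0.42). For BD+ICB over ICB the observed ratios were larger in size for Mmp2 (-1.39, and -0.99 from the makeup) and Mmp12 (1.03, and 0.54). So were those of Timp2 (-0.97, and -0.77), Mmp9 (-1.78, and -1.26) and Mmp8 (-0.88, and -0.26). Mmp3 (-1.56, and -1.225), Mmp14 (-0.15, and -0.079) and Mmp19 (0.83, and 0.68) were alike in this. The observed ratio was smaller in size for Timp1 (-0.36, and -0.44) and of opposite sign for Mmp13 (-0.08, and 0.40).

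Without mesenchymal and proliferating cancer cells, none of the 10 genes was called for diet. Mmp2 then stood at 12.7, 14.3 and 11.2 CPM in BD+ICB and 17.6, 15.0 and 12.7 CPM in ICB tumours, and 28.0, 30.2 and 21.3 CPM in BD and 25.8, 40.1 and 29.9 CPM in SD tumours. Its log2 fold change over both libraries shrank to -0.27 (adjusted p = 0.440). Mmp12 stood at 0.87 (adjusted p = 0.353), Mmp19 at 0.52 (adjusted p = 0.387) and Timp2 at -0.18 (adjusted p = 0.852). Timp1 turned to 0.91 (adjusted p = 0.296), with 73.7, 63.5 and 109 CPM in BD+ICB and 36.2, 40.9 and 118 CPM in ICB tumours, and 81.6, 30.2 and 68.4 CPM in BD and 16.9, 24.2 and 26.6 CPM in SD tumours. In that set of cells 86 of 10551 genes were called.

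The deposited cells all had hashtag totals above 500. With 9472 barcodes and no such limit, none of the 10 genes was called either. Mmp2 stood at 111, 94.6 and 147 CPM in BD+ICB and 163, 216 and 146 CPM in ICB tumours, and 199, 106 and 195 CPM in BD and 237, 251 and 251 CPM in SD tumours. Its log2 fold change over both libraries was -0.52 (adjusted p = 0.175), with overlap between the diets under blockade. Mmp12 stood at 1.28 (adjusted p = 0.198), Mmp19 at 0.87 (adjusted p = 0.175), Timp2 at -0.27 and Timp1 at 0.04 (adjusted p = 0.954). Only 4 of 13233 genes were called there. Without neutrophils, all 5 calls were kept, beside 4501 of all 11831 genes called.

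**Figure D4:**
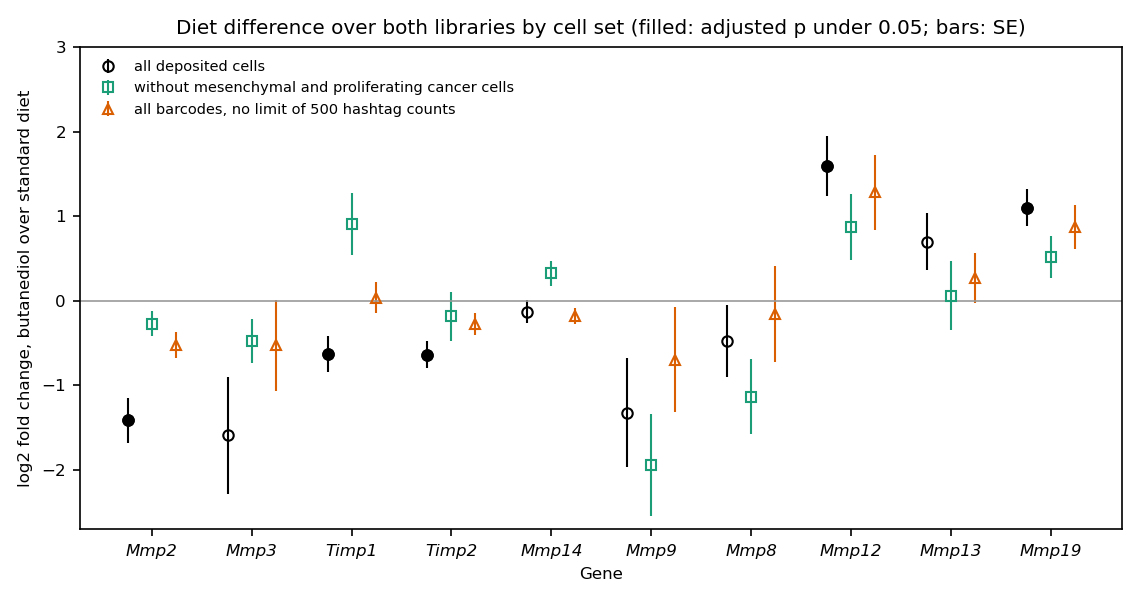
Log2 fold change of each gene for butanediol over standard chow in both libraries (vertical axis, with standard errors), for the genes along the horizontal axis. It was computed over all deposited cells, without mesenchymal and proliferating cancer cells, and over the 9472 barcodes that met the stricter hashtag rule. That last set had no limit of 500 hashtag counts and is drawn as all barcodes. Filled points have an adjusted p under 0.05. The 5 filled points all belong to the deposited cells, and Timp1 changes sign.

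Within single classes 1 diet call was made, in CD8 T cells. In the 4 classes with enough cells in every group (Cxcr2+ neutrophils, M1, Mmp+ M2 and Trem2+ M2 macrophages), 0 of 27 member tests passed for BD against SD or over both libraries, where 0.0309% of all tests did in each. By an unadjusted p under 0.05 they numbered 1 and 2, and DESeq2 called 1 in each. Mmp12 in Mmp+ M2 macrophages had 2612, 1860 and 3065 CPM in BD+ICB and 1897, 3323 and 1267 CPM in ICB tumours, and 1460, 1921 and 1143 CPM in BD and 854, 1187 and 1786 CPM in SD tumours. The diets overlapped in both libraries, and the log2 fold change was 0.18 (SE 0.26, adjusted p = 0.928). Mmp9 in Cxcr2+ neutrophils stood at 0.01 (SE 0.26, adjusted p = 0.998). Timp1 in M1 macrophages had the smallest p of these tests, at 1.67 (SE 0.42, adjusted p = 0.239). The difference between the diet effects was called for 0 of 27 tests, where 0.00515% of all tests were, with 2 at an unadjusted p under 0.05 and 0 by DESeq2. In merged compartments 0 of 13 tests passed for BD against SD, for both libraries or for the difference, beside 0%, 0.206% and 0% of all tests. An unadjusted p under 0.05 was reached by 1, 1 and 0 of them, and DESeq2 called 0 in each.

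For BD+ICB against ICB, 13 classes could be tested, and 1 of 75 member tests passed, beside 0.307% of all tests, with 14 at an unadjusted p under 0.05. This was Timp1 in CD8 T cells, which had 8.45, 6.47 and 12.8 CPM in BD+ICB tumours (5, 8 and 5 UMIs), against 43.5, 23.8 and 38.9 CPM in ICB tumours (36, 9 and 10 UMIs). The groups did not overlap, and Timp1 fell by 2.09 (SE 0.46, adjusted p = 0.0231), where 0.874% of genes in CD8 T cells were called. With all T cells merged it stood at 10.5, 8.12 and 10.3 CPM in BD+ICB, against 38.6, 22.5 and 32.1 CPM in ICB tumours, and fell by 1.76 (SE 0.38, adjusted p = 0.00961), where 0.559% of genes were called. That was 1 call in 51 tests over merged compartments, beside 0.413% of all tests, with 12 at an unadjusted p under 0.05.

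Markers of neutrophils and mesenchymal cells moved with this result, whereas those of macrophages, monocytes and dendritic cells overlapped between the groups. The 6 neutrophil markers summed to 23.0 to 40.4 CPM in the CD8 T cells of BD+ICB tumours and to 410 to 1845 CPM in those of ICB tumours. The mesenchymal markers summed to 279 to 298 CPM in BD+ICB and 343 to 373 CPM in ICB tumours. The macrophage markers summed to 193, 178 and 425 CPM in BD+ICB and 254, 410 and 323 CPM in ICB tumours. The monocyte markers summed to 713, 1035 and 494 CPM in BD+ICB and 355, 714 and 1007 CPM in ICB tumours. The part of other cells in the result was not tested. Under the stricter hashtag rule neither call passed, with adjusted p up to 0.67 in CD8 T cells and 0.69 in T cells. In CD8 T cells the call was also lost without BD+ICB tumour 1, BD+ICB tumour 2, ICB tumour 1 or ICB tumour 3, at adjusted p = 0.0698 to 0.229, and in T cells without BD+ICB tumour 2 or ICB tumour 1, at adjusted p = 0.232 to 0.298.

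Blockade against no blockade is here also library against library. Over all cells, 0 of 10 genes passed for ICB against SD tumours, beside 2.89% of all genes, and 0 of 10 for BD+ICB against BD tumours, beside 8.8%. By an unadjusted p under 0.05 there were 2 in each. DESeq2 called 1 and 0, beside 754 and 1396 of all 11988 genes. Mmp13 came nearest, with 60.5, 120 and 55.4 CPM in ICB and 12.4, 33.6 and 17.6 CPM in SD tumours. Those groups did not overlap, and its log2 fold change was 1.90 (SE 0.47, adjusted p = 0.0622), where the ratio of mean levels was 1.89 observed and 0.43 from the makeup alone. Without mesenchymal and proliferating cancer cells, Mmp2 was the single call of either comparison, at -1.08 for ICB against SD (adjusted p = 0.0107) and -1.03 for BD+ICB against BD (adjusted p = 0.0172). Of all genes in that set of cells, 5.19% and 6.62% were called.

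Within classes, Mmp14 was higher under blockade in Trem2+ M2 macrophages, in both diets, and in other macrophages on standard chow. In Trem2+ M2 macrophages it had 409, 416 and 337 CPM in ICB, against 253, 184 and 197 CPM in SD tumours, and 467, 436 and 381 CPM in BD+ICB, against 336, 187 and 187 CPM in BD tumours. Neither pair overlapped. The log2 fold change was 0.86 for ICB against SD (SE 0.22, adjusted p = 0.0232; 5.72% of genes of the class called) and 0.91 for BD+ICB against BD (SE 0.23, adjusted p = 0.0245; 3.94% called). In other macrophages Mmp14 had 430, 332 and 343 CPM in ICB, against 257 and 159 CPM in the SD tumours with enough cells, a fold change of 0.74 (SE 0.21, adjusted p = 0.0466; 4% called). The lone BD tumour with enough of these cells had 432 CPM. In Mmp+ M2 macrophages (0.92, adjusted p = 0.0715) and M1 macrophages (1.05, adjusted p = 0.208) Mmp14 did not pass for ICB against SD.

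**Figure D5:**
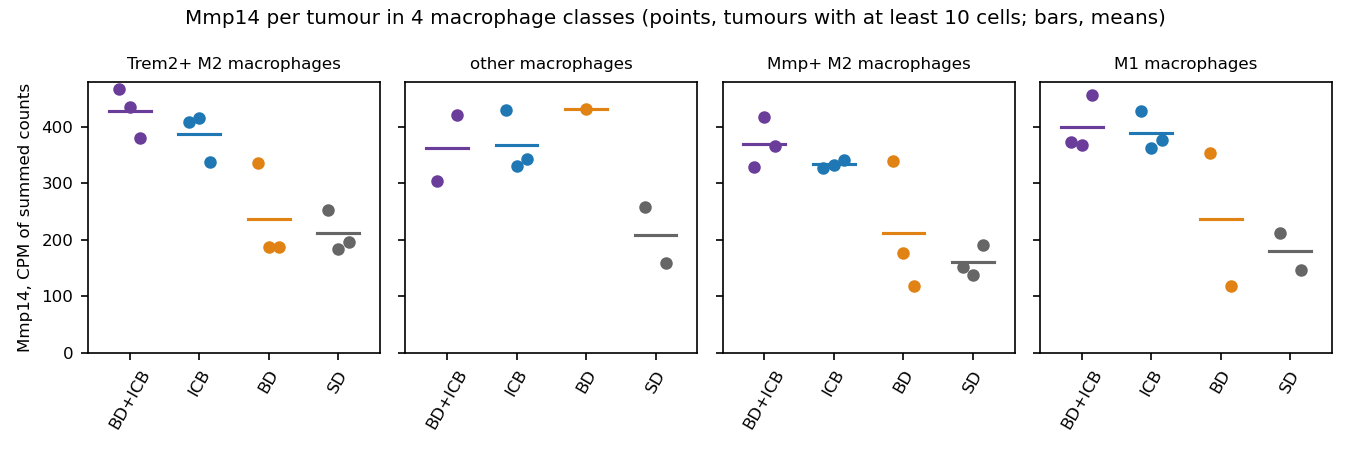
Mmp14 in the 4 macrophage classes (vertical axis, CPM of the class, from 0), with a point for each tumour with at least 10 cells and a bar at the mean, for BD+ICB, ICB, BD and SD from left to right. In Trem2+ M2 macrophages the ICB tumours (337 to 416 CPM) lie above the SD tumours (184 to 253 CPM).

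Classes gave 2 further calls for ICB against SD, which brings the count to 4 of 70 member tests, beside 2.44% of all tests. Mmp9 in Hilpda+ neutrophils had 296, 231 and 303 CPM in ICB, against 138, 157 and 66.1 CPM in SD tumours. It rose by 1.37 without overlap (SE 0.30, adjusted p = 0.00721; 6.02% of genes of the class called), while the neutrophil markers of that class summed to 36015 to 49081 CPM in ICB and 64125 to 75242 CPM in SD tumours. Timp2 in other macrophages had 123, 139 and 125 CPM in ICB, against 184 and 285 CPM in SD tumours, and fell by 0.89 (SE 0.22, adjusted p = 0.0228). For BD+ICB against BD, the Mmp14 call above was the only one in 27 member tests, beside 2.29% of all tests, and merged compartments gave 0 of 13 beside 4.45%, with 4 at an unadjusted p under 0.05 and 2 by DESeq2.

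Merged compartments gave 5 calls in 59 member tests for ICB against SD, beside 2.58% of all tests. In macrophages 5.77% of genes were called. Mmp14 had 402, 353 and 354 CPM in ICB, against 240, 184 and 186 CPM in SD tumours, and rose by 0.81 (SE 0.22, adjusted p = 0.0403). Mmp13 had 163, 449 and 131 CPM in ICB, against 32.1, 56.6 and 45.9 CPM in SD tumours, and rose by 2.44 (SE 0.59, adjusted p = 0.0485). With the replicate number as a block it stood at 2.26 (adjusted p = 0.0574). ICB tumour 2 was the highest, and neither gene's groups overlapped. The mix of macrophage classes differed, since Mmp+ M2 macrophages, the class highest in Mmp13, numbered 46, 47 and 56 in ICB and 14, 15 and 21 in SD tumours, and Trem2+ M2 macrophages 233, 29 and 26 in ICB and 85, 54 and 116 in SD tumours. Its part in the values of merged macrophages was not tested. Within Mmp+ M2 macrophages alone, Mmp13 stood at 2.03 (SE 0.68, adjusted p = 0.198).

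Mmp2 in macrophages was lower in ICB tumours, at 20.8, 8.61 and 11.0 CPM, against 27.7, 29.0 and 28.1 CPM in SD tumours (-1.02, SE 0.28, adjusted p = 0.0338). Mesenchymal markers in those macrophages summed to 236 to 303 CPM in ICB and 273 to 324 CPM in SD tumours. In the merged dendritic classes, where 2.72% of genes were called, Mmp12 had 397, 524 and 277 CPM in ICB, against 36.8 and 64.6 CPM in SD tumours, and rose by 2.73 (SE 0.45, adjusted p = 0.0065). Mmp14 had 273, 249 and 196 CPM in ICB, against 92.0 and 102 CPM in SD tumours, and rose by 1.12 (SE 0.27, adjusted p = 0.0231). The mix of classes differed, since Nos2+ dendritic cells numbered 41, 6 and 15 in ICB tumours and 5, 2 and 2 in SD tumours, and its part in both values was not tested.

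Single tumours decided several of these calls. For Mmp14 in Trem2+ M2 macrophages, leaving out ICB tumour 1 or 2 or SD tumour 2 or 3 gave adjusted p = 0.0656 to 0.139, and leaving out BD+ICB tumour 1 or 2 or BD tumour 2 or 3 gave 0.0852 to 0.182. For Mmp9 in Hilpda+ neutrophils only SD tumour 3 did so (0.91, adjusted p = 0.127). For Mmp12 in dendritic classes SD tumours 1 and 3 did so, at adjusted p = 0.0784 to 0.104. For Timp2 in other macrophages ICB tumour 3 and SD tumour 3 did so, at adjusted p = 0.0749 to 0.31 (-0.57 without SD tumour 3). For Mmp14 in merged macrophages the 9 fits without a BD+ICB, ICB or SD tumour lost the call, at adjusted p = 0.0509 to 0.149. For Mmp13 there 8 of 12 did, at adjusted p = 0.0655 to 0.155, all but those without ICB tumour 2 or 3 or BD tumour 1 or 3. For Mmp2 in macrophages ICB tumours 2 and 3 and any SD tumour did so, at adjusted p = 0.0827 to 0.112, and without ICB tumour 1 it stood at -1.55. Mmp14 was lost in other macrophages without any ICB tumour, BD tumour 1 or SD tumour 3, at adjusted p = 0.052 to 0.368 (0.46 without SD tumour 3, and 1.14 without SD tumour 1), and in dendritic classes without ICB tumour 1 or 2 or SD tumour 1 or 3 (adjusted p = 0.0507 to 0.177).

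The levels that did not pass showed how much tumours varied. Mmp13 in Mmp+ M2 macrophages had 491, 185 and 427 CPM in BD+ICB, 435, 1146 and 436 CPM in ICB, 215, 207 and 87.6 CPM in BD and 42.3, 137 and 255 CPM in SD tumours. Mmp8 in Cxcr2+ neutrophils had 53.5, 130 and 80.8 CPM in BD+ICB, against 247, 228 and 124 CPM in ICB tumours, and SD tumours reached 681 CPM. In mesenchymal cells, which only ICB and SD tumours held in number, Mmp3 had 142, 261 and 61.6 CPM in ICB, against 97.8, 39.4 and 24.0 CPM in SD tumours (1.43, adjusted p = 0.420). Timp2 had 1030, 991 and 980 CPM there in ICB, against 790, 796 and 694 CPM in SD tumours (0.28, adjusted p = 0.213), and Mmp2 overlapped, with 405, 486 and 449 CPM in ICB and 462, 406 and 235 CPM in SD tumours.

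Across the 18 classes, each gene's pattern was set beside those of 11040 genes by Pearson's r of log2 mean levels. Classes share libraries and tumours, so these values are a description. Mmp2 was most like the fibrillar collagen genes Col1a2 (r = 0.968) and Col3a1 (r = 0.967), then Crabp1 (r = 0.946). Mmp9 was most like Cstdc4 (r = 0.971) and Cxcr2, the neutrophil chemokine receptor (r = 0.963). Mmp13 was most like Slc7a2, an arginine transporter (r = 0.942), and the arginase gene Arg1 (r = 0.929), and Mmp12 most like the chemokine gene Cxcl16 (r = 0.923). Mmp14 was nearest to Nrp2 (r = 0.953), Mmp19 to Dock4 (r = 0.958), Mmp3 to the proteoglycan gene Bgn (r = 0.945), Mmp8 to Atp6v1e1 (r = 0.936), Timp1 to Cnn3 (r = 0.950) and Timp2 to Ergic1 (r = 0.852). Within the family the closest pairs were Mmp13 with Mmp19 (r = 0.846), Mmp2 with Timp2 (r = 0.838) and Mmp12 with Mmp19 (r = 0.825).

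Other genes of matrix proteolysis were taken as a list of 63, of which 56 were in the table and 46 could be tested over all cells. On butanediol over both libraries 15 rose and 13 fell, beside 30.6% of all genes, and their median log2 fold change was 0.09 against 0.01 over all genes. Of 11 cathepsins and cystatins, the lysosomal proteases and their inhibitors, 7 rose and none fell, among them Ctss. Ctss averaged 1811 CPM in BD+ICB, 1131 in ICB, 2059 in BD and 1159 in SD tumours (0.89, SE 0.09, adjusted p = 0.00011). Plaur, the urokinase receptor, averaged 404, 257, 372 and 206 CPM in the same groups (0.88, SE 0.13, adjusted p = 0.000477).

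Among the genes that fell were Timp3, the matrix-bound inhibitor, and the secreted protease Adamts1. Timp3 averaged 11.5 CPM in BD+ICB, 52.2 in ICB, 6.00 in BD and 50.8 in SD tumours (-2.30, SE 0.25, adjusted p = 0.000176). Adamts1 averaged 20.3, 66.3, 7.20 and 58.4 CPM in the same groups (-2.07, SE 0.17, adjusted p = 7.56e-05). The tetraspanin gene Cd63 fell by 0.74 (adjusted p = 0.00074). Of 15 adamalysins tested, 4 rose (Adam8, Adam9, Adam15 and Adam17) and 5 fell. Without mesenchymal and proliferating cancer cells, 0 of 38 genes of the list passed in any diet comparison. Few genes of any kind passed there. The share of all genes was 0% for BD against SD, 0.0284% for BD+ICB against ICB and 0.815% for both libraries. Over all cells, BD against SD gave 14 that rose and 9 that fell, beside 21.3% of all genes, and BD+ICB against ICB gave 4 and 4, beside 6.48%. The cell adhesion receptor gene Cd44 was the only one called for ICB against SD (0.63, adjusted p = 0.0446). For BD+ICB against BD, which is also library against library, 2 were higher and 5 lower, beside 8.8% of all genes. The lower ones were Lrp1 and 4 of the 11 cathepsins and cystatins (Cst3, Ctsa, Ctsb and Ctsl).

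Within classes the list gave calls mainly between libraries. For ICB against SD 10 rose and 10 fell in 325 tests, beside 2.44% of all tests, led by Thbs1, the thrombospondin gene, in Hilpda+ neutrophils (1.97, adjusted p = 0.000208) and Cxcr2+ neutrophils (1.72, adjusted p = 0.000278). For BD+ICB against BD 8 rose and 2 fell in 106 tests, beside 2.29% of all tests, led by Thbs1 in Cxcr2+ neutrophils (2.77, adjusted p = 1.15e-05) and Ctss in Trem2+ M2 macrophages (0.98, adjusted p = 0.00437). For BD+ICB against ICB 2 rose and 2 fell in 338 tests, beside 0.307% of all tests. In proliferating cancer cells Cd44 rose by 0.62 (adjusted p = 0.0115), Plaur rose by 0.75 (adjusted p = 0.0185) and Timp3 fell by 1.84 (adjusted p = 0.0160). Those values rest on BD+ICB tumours 1 and 2, with 12 and 11 such cells, against 36, 16 and 17 in ICB tumours. BD+ICB tumour 3 had 6 and was left out. In CD4 T cells the tetraspanin gene Cd9 fell by 1.61 (adjusted p = 0.0207). Fits that left out a tumour are not given for these 4 calls.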

How the data were processed

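The authors deposited gene counts, UMIs per gene and barcode, whose file headers name Cell Ranger 6.1.1. R 4.1 and the mm10 build stand in the submitters' processing notes. Hashtag counts and the percent of mitochondrial UMIs, also deposited, served only to check which barcodes became cells. How hashtags were counted is not given in the sources used here. Classes and tumour assignments are the authors' own, covering 5749 cells in 19 classes. In the files these are exactly the barcodes with more than 500 hashtag counts, less than 5% mitochondrial UMIs and 250 genes or more. No doublet caller was run.

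Counts were summed per tumour over all cells, over each class and over 9 merged compartments. At least 10 cells per tumour and 2 tumours per group were required. Sums were fitted across all genes with edgeR 4.0.16 (TMM, filterByExpr, robust quasi-likelihood test) in R 4.3.3 on the 4 groups. Adjusted p-values are Benjamini-Hochberg values over the genes of one class, compartment or whole tumour, at a threshold of 0.05. Fold changes are log2, first group over second. For edgeR fits the standard error was derived, as the size of the fold change over the square root of its quasi-likelihood F statistic. Levels are UMIs per 1e+06 UMIs (CPM), with no correction for gene length, so genes are not compared in level. Depth was 510984 to 13007506 UMIs per tumour. The script was checked on simulated counts with a fixed spread and no difference in cell makeup. That check required only that the median fold change of raised genes be recovered, and it set no limit on false calls. P-values measure the spread between tumours, since no mice are named.

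Deviations of same-numbered ICB and SD tumours had correlations of 0.289, 0.148 and 0.241 over 11550 genes. Those of BD+ICB and ICB tumours had 0.187, 0.0239 and 0.271. The labels state no pairing of tumours, and the main fits used none. Alternatives were DESeq2 1.42.0, size factors by RLE, keeping all genes however low, a minimum of 30 cells, cells with at least 1000 UMIs, a stricter hashtag rule (10 counts or more on the leading tag, 3 times the next), the replicate block, only the tumours compared, adjustment over all classes together, other cell sets and leaving out each tumour. The level from makeup alone was added after seeing the data.

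All 10 members were named in every comparison. Of the list of matrix proteolysis genes, up to 5 called genes with the smallest adjusted p were eligible per comparison, and per member the 3 genes most alike over classes. Named members of the cathepsin and adamalysin groups beyond these were chosen after their values were seen. The members and lists were chosen with earlier results of these data known.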

Additional observations from a re-analysis of the deposited data

How the results depend on the processing

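Of 455 alternative values for the called fold changes, 323 kept their direction and call, 128 kept the direction without passing and 4 reversed. The 4 were Timp1 over all cells. It stood at 0.0992 for BD against SD and 0.0363 for both libraries with the 9472 barcodes of the stricter hashtag rule. Without mesenchymal and proliferating cancer cells it stood at 1.49 and 0.908. The cell set also set the counts. With the 9472 barcodes, and again without mesenchymal and proliferating cancer cells, 0 members passed for BD against SD, for BD+ICB against ICB and for both libraries. Of all genes, 4 and 86 passed for both libraries, against 3666 over all deposited cells. Without mesenchymal and proliferating cancer cells 1 member passed for ICB against SD and 1 for BD+ICB against BD, beside 548 and 699 of all 10551 genes. Without neutrophils 2 passed for BD+ICB against ICB, beside 1438 of all 11831 genes.

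With no filter on low counts, class tests gave 1 call for BD against SD, 1 for both libraries, 2 for the difference between diet effects, 7 for BD+ICB against ICB, 15 for ICB against SD and 7 for BD+ICB against BD. Compartments then gave 8, 14 and 3 for BD+ICB against ICB, ICB against SD and BD+ICB against BD. All cells gave 1 for BD against SD and 0 for BD+ICB against ICB, beside 2129 and 646 of all 18748 genes. Under DESeq2 classes gave 1 for BD against SD and 1 for both libraries, and compartments 10 for ICB against SD and 2 for BD+ICB against BD. All cells then gave 3 for BD+ICB against ICB and 1 for ICB against SD, beside 1163 and 754 of all 11988 genes. With 30 cells per tumour, ICB against SD gave 0 in classes and 3 in compartments; for both libraries, the difference and BD+ICB against BD no class could be fitted. Under the stricter hashtag rule, classes gave 7 for ICB against SD and compartments 0 for BD+ICB against ICB. With only the tumours compared, classes gave 7 for ICB against SD and 0 for BD+ICB against BD, and compartments 2 for BD+ICB against BD. All cells gave 2 for BD against SD, beside 1825 of all 9893 genes, and 2 for BD+ICB against ICB, beside 842 of all 12148 genes. Adjusted over all classes together, BD+ICB against ICB gave 0. For classes and compartments the share of all genes called under each alternative is not given here. Those counts are therefore not read as results about the members.

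The replicate block gave 5 calls in classes, 2 in compartments and 2 over all cells for BD+ICB against ICB, and 1 in compartments for BD+ICB against BD. Over all cells 1322 of all 11988 genes were called for BD+ICB against ICB with the block, against 777 without it. In those comparisons and in BD against SD the deviations of same-numbered tumours had correlations of -0.131 to 0.271, beside 0.148 to 0.289 for ICB against SD. For Mmp19, BD against SD, the block gave 1.25 (adjusted p = 0.0526). For ICB against SD the block changed no call but that of Mmp13 in macrophages and added 2 in classes and 2 in compartments.

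Fits that left out one tumour gave 0 to 3 class calls for BD+ICB against ICB, 0 to 6 for ICB against SD and 0 to 4 for BD+ICB against BD. In compartments they gave 0 to 3, 0 to 5 and 0 to 2. Over all cells they gave 1 to 4 for BD against SD, 0 to 2 for BD+ICB against ICB, 4 to 6 for both libraries, 0 to 1 for the difference and 0 to 3 for BD+ICB against BD. The calls over all genes in those fits numbered 1445 to 2534, 65 to 1101, 2771 to 3717, 0 to 229 and 182 to 1591, in the same order. A group with a lone tumour left took its spread from the other groups. The cause of these shifts was not tested. Mmp2, Mmp12, Mmp19 and Timp2 over both libraries passed in all 12 such fits and in 19 of 21 alternatives in all, the exceptions being the pair of other cell sets. Few UMIs stood behind Timp1 in CD8 T cells (5 to 36 per tumour), and few cells behind BD tumour 2 (70 cells).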
